A study of Homo sapiens with 6 samples.

Results

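The 42 genes described here encode the machinery that builds autophagosomes, selects their cargo and joins them to lysosomes. They were listed by symbol and found in the deposited count table through their Ensembl identifiers. All 42 were found among 60675 genes in the table, and all 42 passed the filter on low counts that left 18267 genes for testing. The cells were HEK293, a widely used line derived from human embryonic kidney. There were 3 libraries labelled MOCS2 RNAi knockdown and 3 libraries labelled control with a wild type genotype, and all were grown in high-glucose medium with serum and the antibiotic Geneticin. Total RNA was depleted of ribosomal RNA and sequenced as stranded libraries. MOCS2 encodes both subunits of molybdopterin synthase, and the groups differ in whether it was targeted. The labels give neither the RNAi construct nor whether the replicates were separate cultures, so p-values measure the spread between these libraries, which may be technical.

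The targeted gene did not separate the groups. MOCS2 RNA stood at 69.8, 58.9 and 59.9 CPM (counts scaled to library size) in knockdown 1, 2 and 3, and at 57.75, 66.55 and 65.6 CPM in control 1, 2 and 3, with overlapping groups. The log2 fold change was -0.01, its standard error (SE) 0.14 and its 95% interval -0.33 to 0.31 (edgeR adjusted p = 0.976). Each direction given here is therefore that of the libraries labelled knockdown, with no drop in MOCS2 RNA detected. Reads assigned to genes numbered from 17958632 to 19362299 in the libraries labelled knockdown and from 19895547 to 22171106 in controls. Knockdown 2 stood apart: HTSeq, the counting tool, assigned 37.5% of its uniquely aligned reads to no counted feature. This share was 22.3% and 21.5% in knockdown 1 and 3 and 23.6% to 24.95% in controls. It may include reads in introns of annotated genes. The summed level of 8 markers of HEK293 cells was 472 to 525 CPM in the libraries labelled knockdown and 532 to 588 CPM in controls, although DLK1 and PAX2 were near 0 or low in both. Of 8 fibroblast markers 5 averaged under 1 CPM, and their sum was 10.2 to 23.9 CPM in the libraries labelled knockdown and 10.2 to 16.6 CPM in controls. All 8 markers of blood and endothelium averaged under 1 CPM, with sums of 1.43 to 3.40 CPM in the libraries labelled knockdown and 0.988 to 2.92 CPM in controls. No marker was at 0 in every library. Their part in the results was not tested.

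Autophagy encloses cytoplasm in a double membrane and delivers it to the lysosome. The ULK1 kinase complex starts the process, a lipid kinase complex around BECN1 marks the membrane with phosphatidylinositol 3-phosphate (PI3P), and ATG2 and ATG9 supply lipid to it. Ubiquitin-like enzymes then attach proteins of the ATG8 family to the membrane, where cargo receptors bind them, and a final set of proteins joins the closed vesicle to the lysosome. Cultured cells run this pathway at a basal rate and raise it when amino acids are scarce.

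More of the 42 genes lay below the controls than above them in the libraries labelled knockdown. The log2 fold change was negative for 30 of the 42 genes (71.4%), against 48.2% of all genes tested. The median log2 fold change was -0.14 over the 42 genes and 0.02 over all genes tested. In 11 genes all 3 libraries labelled knockdown were below all 3 controls (26.2%, against a background of 14.3% of all genes tested), and in 2 they were above (4.76%, against 12.5%). No gene of the 42 passed edgeR's quasi-likelihood test at an adjusted p of 0.05, as 0 of 18267 genes (0%) did in either direction. At an unadjusted edgeR p under 0.05, 10 of the 42 were lower (23.8%, against 10.6% of all genes) and 1 was higher (2.38%, against 9.93%), or 26.2% against 20.5% in either direction. DESeq2 called 2 of the 42 lower and 0 higher, against 3.41% and 2.89% of all genes for which it gave an adjusted p. With no filter edgeR called 1 lower and 0 higher (against 2.03% and 1.6%), and with a replicate block 0 in either direction (against 0.0712% and 0.0328%). In RNA from whole cultures, fewer cells that express a gene and less of its RNA per cell cannot be told apart.

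These counts depended on single libraries. Without knockdown 3, edgeR called 11 of the 42 lower (26.2%, against 8.3% of all genes) and 0 higher (against 6.46%), and without any other library it called 0 (against at most 0.0212% of all genes). The 10 lower and 1 higher at an unadjusted p became 16 and 1 without knockdown 3 (against 16.4% and 14.7% of all genes), 9 and 3 without knockdown 2 (11.2% and 10.9%), and 5 and 0 without knockdown 1 (6.32% and 6.08%). They became 6 and 0 without control 1 (7.33% and 6.65%), 3 and 0 without control 2 (5.6% and 4.96%), and 4 and 0 without control 3 (7.58% and 7.03%). The median log2 fold change was -0.22 without knockdown 3 and -0.09 without knockdown 2. In knockdown 2, 29 of the 42 genes lay below all controls and 5 above, while 39% and 38.4% of all genes did. In knockdown 1 there were 23 below and 10 above (38.5% and 37.6% of all genes), and in knockdown 3 there were 19 and 9 (31.7% and 30.6%).

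**Figure D1:**
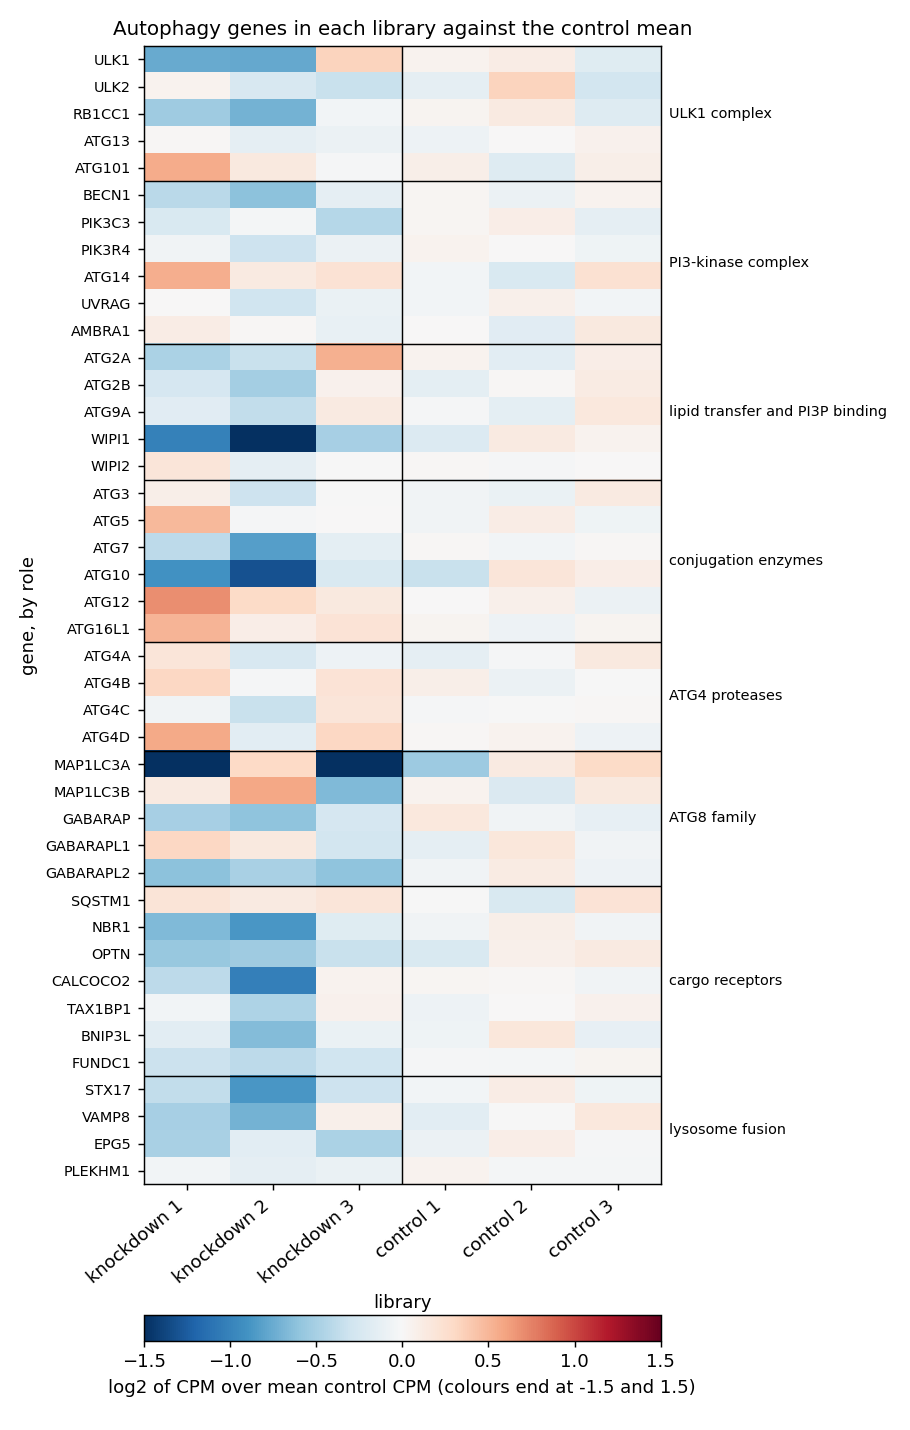
Each row is 1 of 42 autophagy genes and each column 1 library, with the libraries labelled knockdown on the left and controls on the right. Colour is the log2 of CPM over the mean control CPM, so blue is below and red above the controls. WIPI1 is blue in all 3 libraries labelled knockdown, and ULK1 is blue in knockdown 1 and 2 but red in knockdown 3.

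WIPI1 and GABARAPL2 had the smallest p-values among the 42 and were the 2 that DESeq2 called. WIPI1 (ENSG00000070540, chromosome 17, 68420948 to 68457513, minus strand, GRCh38) binds PI3P on the forming membrane. It had 11.7, 7.65 and 16.7 CPM in knockdown 1, 2 and 3, against 20.5, 26.0 and 24.5 CPM in control 1, 2 and 3. All 3 libraries labelled knockdown lay below all controls, with knockdown 2 the lowest and knockdown 3 nearest to the controls. The log2 fold change was -0.98 with an SE of 0.26 (edgeR adjusted p = 0.106, DESeq2 adjusted p = 0.0165). WIPI1 shares 24.3% of its exon length with ARSG on the opposite strand, and since no source used here says whether counting used strand, reads of these genes may not be separable.

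GABARAPL2 (ENSG00000034713, chromosome 16, 75566351 to 75577881, plus strand, GRCh38) is an ATG8 protein that is attached to the autophagosome membrane. It had 46.5, 50.9 and 47.1 CPM in knockdown 1, 2 and 3, against 68.9, 77.9 and 67.5 CPM in the controls. The groups did not overlap, with means of 48.1 ± 2.38 CPM in the libraries labelled knockdown and 71.4 ± 5.65 CPM in controls (SD, n = 3 each). The log2 fold change was -0.57 with an SE of 0.14 (edgeR adjusted p = 0.0979, DESeq2 adjusted p = 0.0223), and it stayed between -0.51 and -0.62 when any 1 library was left out. Without knockdown 3 the edgeR adjusted p was 0.031 for GABARAPL2 and 0.00534 for WIPI1. Without knockdown 1 it was 0.343 for GABARAPL2 and 0.354 for WIPI1. The WIPI1 log2 fold change was -0.74 without knockdown 2 (edgeR adjusted p = 0.13).

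The 250 bases before the RefSeq start of these 2 genes are shown because they are the promoters of the members with the smallest p-values. They were read from RefSeq on GRCh38.p14, at chr17:68457497-68457746 on the minus strand for WIPI1 and at chr16:75566129-75566378 on the plus strand for GABARAPL2. Lower case throughout marks the absence of the searched motif CACGTG.
WIPI1: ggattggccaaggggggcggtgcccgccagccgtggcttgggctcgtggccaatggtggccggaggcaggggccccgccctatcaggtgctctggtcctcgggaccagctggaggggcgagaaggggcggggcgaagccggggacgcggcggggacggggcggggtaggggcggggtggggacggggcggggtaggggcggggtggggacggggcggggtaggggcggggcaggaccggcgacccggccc
GABARAPL2: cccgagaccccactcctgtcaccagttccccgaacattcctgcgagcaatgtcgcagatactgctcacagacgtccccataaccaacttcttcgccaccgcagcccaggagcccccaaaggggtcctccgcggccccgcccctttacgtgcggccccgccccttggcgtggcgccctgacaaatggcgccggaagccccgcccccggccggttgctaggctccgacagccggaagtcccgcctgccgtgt
The WIPI1 stretch is 79.6% G and C and the GABARAPL2 stretch 68.4%.

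CACGTG is the E-box, and TCACGTGA is the longer palindrome at the core of the CLEAR element, through which TFEB and TFE3 act on lysosomal and autophagy genes. Both read the same on either strand, and each TCACGTGA also counts as a CACGTG. RefSeq windows of 300 bases (250 before the start and 50 after) were matched for 35 of the 42 genes, in 43 windows. ATG4D, BNIP3L, EPG5, MAP1LC3A, RB1CC1, STX17 and UVRAG had none. CACGTG was in 2 of the 43 windows (4.65%) and in 7.26% of 35116 windows of all genes. TCACGTGA was in 1 (2.33%, against 0.98%). The matches are shown in capitals within 30 bases, 18 bases before and 6 bases into the ATG3 transcript, and 21 bases before the ATG14 start.
ATG3, before the start (chr3:112561963-112561992, minus strand): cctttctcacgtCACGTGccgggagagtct
ATG3, after the start (chr3:112561940-112561969, minus strand): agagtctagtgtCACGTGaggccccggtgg
ATG14 (chr14:55411834-55411863, minus strand): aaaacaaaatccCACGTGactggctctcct
ATG3 averaged 51.65 ± 7.16 CPM in the libraries labelled knockdown and 54.1 ± 4.70 CPM in controls, and ATG14 48.2 ± 7.34 and 38.9 ± 6.35 CPM (SD, n = 3 each), and both had overlapping groups.

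Among 6 conjugation genes, 2 were lower and 1 higher at an unadjusted edgeR p under 0.05 (against 10.6% and 9.93% of all genes). ATG7, which activates both ubiquitin-like proteins, and ATG10, which passes ATG12 on to ATG5, were the lower ones. ATG12, the ubiquitin-like protein itself, was the higher one. None of the 6 passed edgeR's adjusted test. ATG7 had 22.1, 16.5 and 26.3 CPM in knockdown 1, 2 and 3, against 29.5, 28.4 and 29.45 CPM in controls, so all 3 lay below the narrow control range (log2 fold change -0.43, SE 0.19, edgeR adjusted p = 0.23). The value for ATG7 was -0.27 without knockdown 2 and -0.60 without knockdown 3 (edgeR adjusted p = 0.0472). ATG10 had 4.13, 3.14 and 6.65 CPM, against 6.16, 8.80 and 8.36 CPM in controls, with knockdown 3 above control 1 (-0.74, SE 0.30, edgeR adjusted p = 0.206). The value for ATG10 was -1.10 without knockdown 3 (edgeR adjusted p = 0.024) and -0.53 without knockdown 2 (edgeR adjusted p = 0.302). ATG7 shares 18.1% of its exon length with VGLL4 on the opposite strand, and ATG10 shares 6.86% with RPS23, so both values are uncertain in the same way as that of WIPI1.

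ATG12 (ENSG00000145782, chromosome 5, 115828200 to 115841858, minus strand, GRCh38) had 147, 111 and 101 CPM in knockdown 1, 2 and 3, against 90.8, 95.8 and 85.2 CPM in controls. Every library labelled knockdown was above every control, with knockdown 1 the highest (log2 fold change 0.40, SE 0.17, edgeR adjusted p = 0.22), and the value was 0.22 without knockdown 1. ATG16L1, which binds the joined ATG12 and ATG5 and places them on the membrane, also lay above all controls, at 76.2, 57.2 and 61.6 CPM against 54.9, 50.6 and 55.1 CPM (0.28, SE 0.15, edgeR adjusted p = 0.324), and its value was 0.15 without knockdown 1. ATG5 averaged 88.0 ± 18.5 CPM in the libraries labelled knockdown and 77.8 ± 5.38 CPM in controls (SD, n = 3 each), with overlapping groups. The difference between ATG12 and the enzymes ATG7 and ATG10 was not itself tested. The median log2 fold change of the 6 conjugation genes was 0.06.

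**Figure D2:**
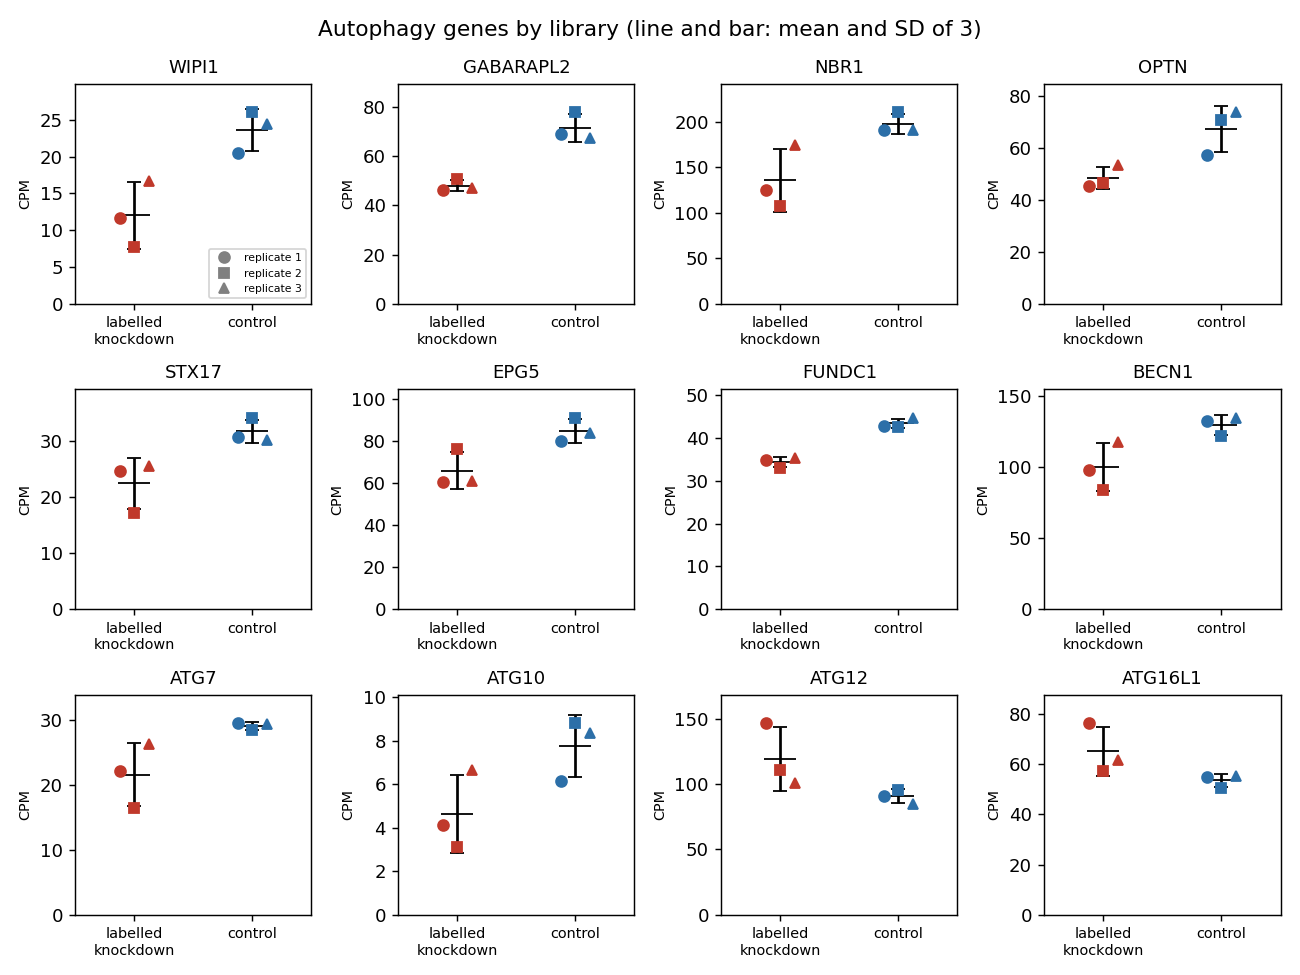
CPM of 12 autophagy genes in each library, with libraries labelled knockdown on the left in red and controls on the right in blue. Symbols mark the replicate number, and the line and bar give the mean and SD of 3 libraries. Points of the groups do not overlap in any panel except ATG10, and ATG12 and ATG16L1 are the panels in which the libraries labelled knockdown are higher.

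The cargo receptors link ubiquitinated proteins or organelles to ATG8 proteins. Of 7 members, 3 were lower at an unadjusted p (NBR1, OPTN and FUNDC1), each below all controls, and 0 were higher, with a median log2 fold change of -0.34. Of all genes tested, 10.6% were lower and 9.93% higher at that p, and 14.3% lay below all controls. NBR1 (ENSG00000188554, chromosome 17, 43170481 to 43211689, plus strand, GRCh38), a receptor for ubiquitinated proteins and peroxisomes, had 125, 107 and 174 CPM in knockdown 1, 2 and 3, against 191, 210.3 and 191 CPM in controls. Knockdown 1 and 2 were well below the controls and knockdown 3 close to them. The log2 fold change was -0.54 with an SE of 0.19 (edgeR adjusted p = 0.151), and -0.77 without knockdown 3 (edgeR adjusted p = 0.0104). Without knockdown 2 the value for NBR1 was -0.41 (edgeR adjusted p = 0.198).

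OPTN, a receptor for mitochondria and bacteria, had 45.1, 46.5 and 53.3 CPM in knockdown 1, 2 and 3, against 57.2, 70.6 and 73.55 CPM in controls (log2 fold change -0.47, SE 0.15, edgeR adjusted p = 0.139). FUNDC1, a receptor in the outer mitochondrial membrane, had 34.8, 33.0 and 35.35 CPM, against 42.9, 42.6 and 44.7 CPM (-0.34, SE 0.14, edgeR adjusted p = 0.206). In both genes the groups did not overlap. The libraries of each group lay close together for FUNDC1, while the OPTN controls were spread over a wider range than the gap between the groups. Without knockdown 3 OPTN was called by edgeR (-0.56, adjusted p = 0.0416), and without knockdown 1 its value was -0.43 (edgeR adjusted p = 0.385). SQSTM1, also known as p62, had 282, 269 and 279 CPM, against 244, 210.4 and 282 CPM, with overlapping groups (0.17, SE 0.15, edgeR adjusted p = 0.559). SQSTM1 shares 20.7% of its exon length with MRNIP on the opposite strand. Of the remaining receptors, TAX1BP1 and BNIP3L had log2 fold changes of -0.13 and -0.28. CALCOCO2, which recognises bacteria and damaged mitochondria, had 91.2, 59.05 and 125 CPM, against 123, 121 and 116 CPM, so that knockdown 3 was above all controls. Its log2 fold change was -0.39 with all libraries (edgeR adjusted p = 0.361) and -0.68 without knockdown 3 (edgeR adjusted p = 0.0385). It was -0.16 without knockdown 2 (edgeR adjusted p = 0.574).

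All 4 genes of the lysosome fusion step had negative log2 fold changes, with a median of -0.35, and 3 of them lay below all controls (against 48.2% of all genes tested negative and 14.3% below all controls). STX17 and VAMP8 are membrane fusion (SNARE) proteins, and EPG5 and PLEKHM1 tether autophagosomes to late endosomes and lysosomes. STX17 had 24.6, 17.3 and 25.6 CPM in knockdown 1, 2 and 3, against 30.8, 34.2 and 30.3 CPM in controls (-0.50, SE 0.18, edgeR adjusted p = 0.168). EPG5 had 60.5, 75.95 and 60.9 CPM, against 79.6, 90.85 and 83.7 CPM (-0.37, SE 0.15, edgeR adjusted p = 0.207), with knockdown 2 the highest of its group. PLEKHM1 was below all controls by a small margin, at 20.25 ± 0.615 CPM in the libraries labelled knockdown and 21.6 ± 0.646 CPM in controls (SD, n = 3 each), a log2 fold change of -0.09. VAMP8 averaged 25.4 ± 7.49 and 32.1 ± 3.49 CPM and its groups overlapped. None of the 4 passed edgeR's adjusted test with all libraries, and VAMP8 was called without knockdown 3 (-0.60, edgeR adjusted p = 0.0392). The log2 fold change of VAMP8 was -0.34 with all libraries and -0.19 without knockdown 2.

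Within the ATG8 family, whose lipid-bound forms sit in the autophagosome membrane, GABARAPL2 and GABARAP were below all controls while the other 3 members overlapped (against 14.3% of all genes below all controls). GABARAP had 8.20, 7.60 and 9.71 CPM in knockdown 1, 2 and 3, against 12.9, 11.2 and 10.7 CPM in controls (-0.45, SE 0.20, edgeR adjusted p = 0.245). It shares 30.5% of its exon length with another annotated gene on the same strand, so its level is uncertain. MAP1LC3B, the most widely used autophagosome marker, had 86.2, 118 and 49.65 CPM, against 81.1, 67.7 and 86.5 CPM, with knockdown 2 the highest and knockdown 3 the lowest of all 6 libraries. Its log2 fold change was 0.11 with an SE of 0.26 (edgeR adjusted p = 0.846), and it was -0.22 without knockdown 2. MAP1LC3B2, a near-identical copy, stayed at or under 0.151 CPM in every library and was not tested. Alignments that were not unique, 23936002 to 33098444 a library, entered no gene count. Reads shared by MAP1LC3B and MAP1LC3B2 would be missing from both, so neither level is certain. MAP1LC3A averaged 1.91 ± 1.71 CPM in the libraries labelled knockdown and 3.15 ± 0.877 CPM in controls (SD, n = 3 each), and GABARAPL1 averaged 47.8 ± 9.54 and 45.3 ± 4.97 CPM.

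**Figure D3:**
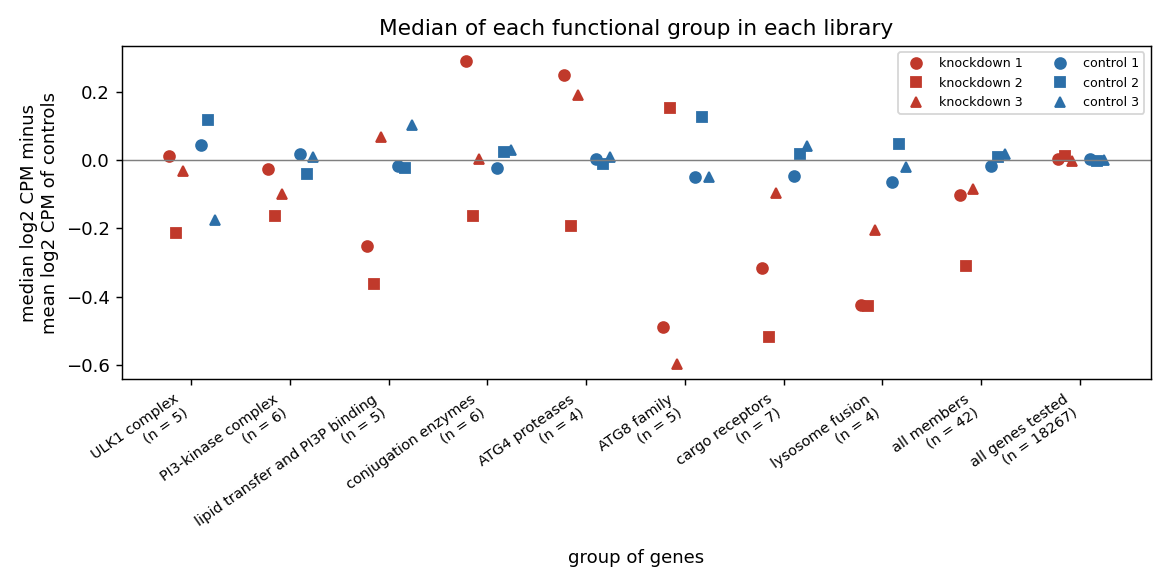
Median over the genes of each functional group, and over all 18267 genes tested, of log2 CPM minus the mean log2 CPM of controls, with libraries labelled knockdown in red and controls in blue. The receptor and fusion groups are below the controls in all 3 libraries labelled knockdown, while the protease and conjugation groups are not. Knockdown 2 is the lowest library in every group of the 42 genes except the ATG8 family.

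Among the 5 genes of the ULK1 complex, 0 passed an unadjusted edgeR p of 0.05 and no gene had separate groups. Of all genes tested, 20.5% passed that p, 12.5% lay above all controls and 14.3% below, so 0 of 5 genes says little. RB1CC1, the large scaffold also called FIP200, had 131, 115 and 184 CPM in knockdown 1, 2 and 3, against 194, 207 and 166 CPM in controls. Knockdown 1 and 2 were below all controls and knockdown 3 within their range (-0.40, SE 0.19, edgeR adjusted p = 0.267). The value for RB1CC1 was -0.62 without knockdown 3 (edgeR adjusted p = 0.0308) and -0.27 without knockdown 2 (edgeR adjusted p = 0.387). ULK1, the kinase itself, had 16.5, 16.4 and 35.2 CPM, against 28.85, 30.1 and 24.6 CPM, so that knockdown 3 was the highest library and the others the lowest. The log2 fold change of ULK1 was -0.29 with all libraries (edgeR adjusted p = 0.58) and -0.76 without knockdown 3 (edgeR adjusted p = 0.015). It was -0.11 without knockdown 2 (edgeR adjusted p = 0.851). ULK2, ATG13 and ATG101 had log2 fold changes of -0.16, -0.07 and 0.25, and their groups overlapped. ATG101 shares 19.2% of its exon length with an antisense gene, so its value is uncertain.

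In the PI3-kinase complex, 1 of 6 genes, BECN1 (beclin 1), had an unadjusted edgeR p under 0.05 and separate groups. Of all genes tested, 20.5% passed that p, 12.5% lay above all controls and 14.3% below, so the complex did not exceed the background. BECN1 had 97.9, 84.35 and 118 CPM in knockdown 1, 2 and 3, against 132, 122 and 135 CPM in controls (-0.37, SE 0.16, edgeR adjusted p = 0.221). The value for BECN1 was -0.51 without knockdown 3 (edgeR adjusted p = 0.0456) and -0.27 without knockdown 2 (edgeR adjusted p = 0.27). The lipid kinase PIK3C3, its regulatory subunit PIK3R4, UVRAG, AMBRA1 and ATG14 had log2 fold changes of -0.22, -0.15, -0.13, 0.01 and 0.31. BECN1 shares 12.4% of its exon length with CNTD1 on the opposite strand, and ATG9A 38.8% with another gene on the same strand, so both are uncertain. Of the lipid transfer and PI3P-binding genes other than WIPI1, ATG2A, ATG2B, ATG9A and WIPI2 had log2 fold changes from -0.21 to 0.02. WIPI2, which recruits ATG16L1, had 121, 97.0 and 106 CPM in knockdown 1, 2 and 3, against 107.5, 105 and 107 CPM, and the 95% interval of its log2 fold change ran from -0.29 to 0.33. ATG2A, like ULK1, was highest in knockdown 3, at 18.04, 19.8 and 36.1 CPM against 25.9, 22.4 and 26.9 CPM.

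The 4 ATG4 proteases, which trim ATG8 proteins before lipid attachment and release them again, had log2 fold changes from -0.05 to 0.27. None had an unadjusted edgeR p under 0.05 (against 20.5% of all genes) or separate groups (12.5% above and 14.3% below all controls), which says little for 4 genes. ATG4B had 61.5, 49.0 and 57.0 CPM in knockdown 1, 2 and 3, against 52.6, 46.6 and 49.5 CPM in controls (0.17, SE 0.15, edgeR adjusted p = 0.534), with a 95% interval from -0.15 to 0.49. ATG4D shares 15% of its exon length with KRI1 on the opposite strand, so its value is uncertain.

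**Figure D4:**
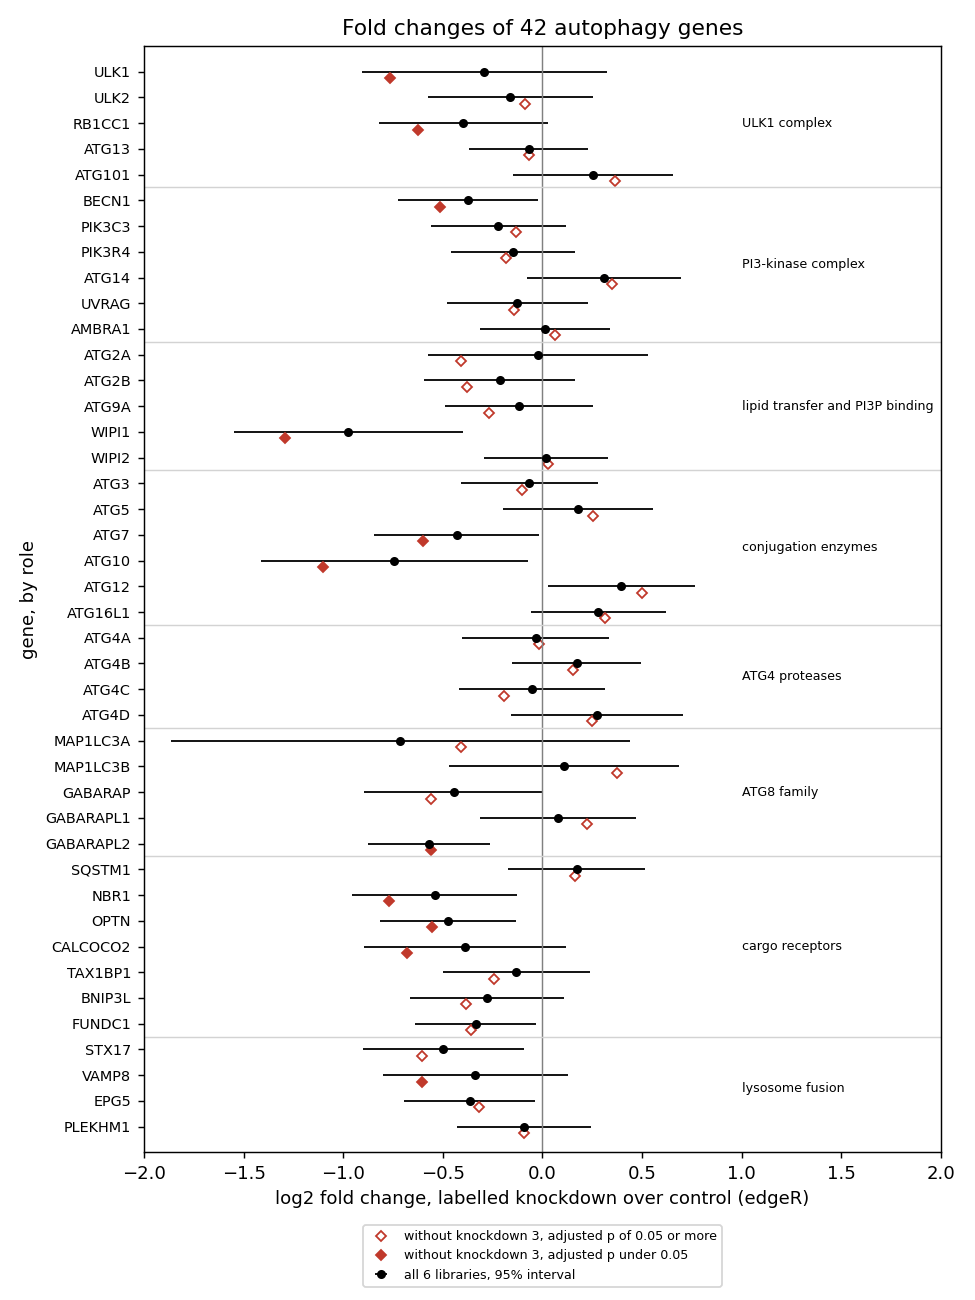
Log2 fold change of each of the 42 genes, labelled knockdown over control, by edgeR. Black points and lines give the value and 95% interval with all 6 libraries, and red diamonds the value without knockdown 3, filled for the 11 genes with an adjusted p under 0.05 in that fit. WIPI1 is lowest in both fits, at -0.98 and -1.29.

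Per length of exon, levels of the 42 genes in controls ranged from 1.43 FPKM (reads scaled to exon length and library size) for ATG10 to 32.4 FPKM for VAMP8, with 7 genes under 5 FPKM and 8 over 20 FPKM. VAMP8 had 25.7 FPKM in the libraries labelled knockdown and 32.4 FPKM in controls, SQSTM1 36.1 and 32.1 FPKM, and FUNDC1 24.6 and 31.0 FPKM. In the ATG8 family GABARAPL2 was the highest in controls, at 23.55 FPKM, followed by MAP1LC3B at 14.8 and GABARAPL1 at 11.1 FPKM. This order is uncertain, since it rests on uniquely aligned reads and on the union of exons (3034 bases for GABARAPL2, 5313 for MAP1LC3B). In the libraries labelled knockdown GABARAPL2 and MAP1LC3B stood at 15.9 FPKM each. The spread between libraries of a group was wider in the libraries labelled knockdown, with a median SD of log2 CPM of 0.26 over the 42 genes against 0.12 in controls, and 0.31 against 0.16 over all genes tested.

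A further 74 genes of autophagy outside the 42 were read from the same fit, of which 72 were tested. Exon sharing with other genes was looked up for the 42 genes only, so values of these further genes may be uncertain in the same way. None passed edgeR's adjusted test. At an unadjusted edgeR p under 0.05, 3 were higher and 11 lower (against 9.93% and 10.6% of all genes). Above all controls lay 9 and below them 11 (against 12.5% and 14.3% of all genes). The 14 at an unadjusted p in either direction are 19.4% of the 72, near the 20.5% of all genes tested, but more of them were lower than higher. The log2 fold change was negative for 41 of the 72 (against 48.2% of all genes), with a median of -0.08 (against 0.02). DESeq2 called 1 higher and 4 lower (against 2.89% and 3.41% of all genes), and without knockdown 3 edgeR called 3 higher and 11 lower (against 6.46% and 8.3%). Of 16 further receptors and mitophagy genes, 5 were lower at an unadjusted p, CALCOCO1 among them, and 1, SEC62, was higher (against 10.6% and 9.93% of all genes). CALCOCO1, a receptor for the endoplasmic reticulum and Golgi, had 14.4, 25.8 and 26.9 CPM in knockdown 1, 2 and 3, against 38.3, 43.9 and 45.7 CPM in controls (-0.93, SE 0.23, edgeR adjusted p = 0.0976, DESeq2 adjusted p = 0.00646). SEC62, a receptor for the endoplasmic reticulum in recovery from stress, had 217, 218 and 169.9 CPM, against 145, 155 and 148 CPM (0.43, SE 0.15, edgeR adjusted p = 0.158). Without knockdown 3 edgeR called CALCOCO1 (-1.09, adjusted p = 0.0121) and SEC62 (0.54, adjusted p = 0.0321). CALCOCO1 was at -0.70 without knockdown 1 (edgeR adjusted p = 0.343) and SEC62 at 0.36 without knockdown 2 (edgeR adjusted p = 0.18).

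Among 15 further machinery genes tested, 1, VMP1, had an unadjusted edgeR p under 0.05 (against 20.5% of all genes). In this list 4 genes lay above all controls and 0 below (against 12.5% and 14.3%), with a median log2 fold change of 0.07. VMP1 is a lipid scramblase of the endoplasmic reticulum needed for autophagosome formation. It had 275, 327 and 188 CPM in knockdown 1, 2 and 3, against 168, 142 and 176 CPM in controls, so all 3 were above the controls (0.70, SE 0.20, edgeR adjusted p = 0.116, DESeq2 adjusted p = 0.0326). TMEM41B, its partner scramblase, had a log2 fold change of -0.19 and overlapping groups. Of 11 further fusion genes, VPS16, a subunit of the HOPS tether, had 16.1, 14.8 and 30.6 CPM, against 34.25, 37.2 and 37.6 CPM (-0.82, SE 0.25, edgeR adjusted p = 0.126). The SNARE protein VTI1B averaged 94.8 ± 21.2 CPM in the libraries labelled knockdown and 72.9 ± 8.49 CPM in controls (SD, n = 3 each), a log2 fold change of 0.38 (0.24 without knockdown 1), and its groups overlapped. Without knockdown 3 edgeR called VMP1 (0.89, adjusted p = 0.00682) and VPS16 (-1.24, adjusted p = 0.00157). Their values were 0.51 and -0.64 without knockdown 2 (edgeR adjusted p = 0.16 and 0.192).

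Of 30 upstream regulators, 5 were lower and 1 was higher at an unadjusted p (against 10.6% and 9.93% of all genes), with a median log2 fold change of -0.03. Taken in either direction these 6 are close to the background of 20.5% of all genes, but more of them were lower than higher. The 5 were DEPTOR, MTOR, LAMTOR2, LAMTOR4 and PRKAG1. DEPTOR, an inhibitor of the MTOR kinase that restrains autophagy, had 0.848, 1.70 and 2.64 CPM in knockdown 1, 2 and 3, against 4.27, 4.67 and 4.63 CPM in controls (-1.38, SE 0.37, edgeR adjusted p = 0.106, DESeq2 adjusted p = 0.0118). PRKAB1, a subunit of the energy-sensing kinase AMPK, had 72.7, 53.2 and 45.3 CPM, against 43.05, 37.5 and 45.3 CPM (0.44, SE 0.19, edgeR adjusted p = 0.221), with overlapping groups. Its value was 0.23 without knockdown 1 and 0.58 without knockdown 3 (edgeR adjusted p = 0.0484). That of DEPTOR was -1.82 without knockdown 3 (edgeR adjusted p = 0.00807) and -1.06 without knockdown 1 (edgeR adjusted p = 0.349). The transcription factors TFEB and TFE3 had log2 fold changes of 0.20 and 0.03, with 95% intervals from -0.30 to 0.70 and from -0.28 to 0.34.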

How the data were processed

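Unnormalised counts of reads in each Ensembl gene, deposited by the authors, formed 1 table with 6 library columns. The tools named in the submitters' processing notes are bcl2fastq 2.18, TopHat2 2.0.13 and HTSeq, on hg38. Not given in the sources used here: HTSeq version, annotation and strand setting. The 5 special HTSeq rows entered neither library sizes nor tests. Symbols, positions and exon lengths came from GENCODE release 29 (GRCh38), which matched 57055 of 60675 identifiers.

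Tests used edgeR 4.0.16 under R 4.3.3 (TMM factors, filterByExpr, two-sided quasi-likelihood F test, Benjamini-Hochberg over 18267 genes, threshold 0.05). CPM used TMM-scaled totals, log2 CPM a prior count of 2, and FPKM the union of exons. DESeq2 1.42.0, other factors and filters, a replicate block and leaving out each library were alternatives. The fit was checked on simulated counts. No pair of replicates agreed within counting error (chi-square over its degrees of freedom, 11.6 to 75.3).

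The genes, lists and tests were chosen with earlier results of these data known. Values in each library are given for genes at an unadjusted p under 0.05 and the most abundant of each role. ULK1, ATG2A, CALCOCO2, GABARAP and ATG16L1 were added after their values were seen. Protein sequences were planned but are not used here.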

Additional observations from a re-analysis of the deposited data

Results flagged for a closer look

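The library labelled knockdown 2 had 37.5% of its uniquely aligned reads assigned to no counted feature. This share was 23.6%, 23.95% and 24.95% in control 1, 2 and 3. This share lies outside the gene counts that the comparisons use and is above the level of all controls. Knockdown 2 was also the library in which the most of the 42 autophagy genes, 29, lay below all controls (against 39% of all genes). Its part in the results was not tested beyond leaving it out: without it 9 of the 42 were lower and 3 higher at an unadjusted edgeR p under 0.05 (against 11.2% and 10.9% of all genes).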

How the results depend on the processing

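With DESeq2 size factors, upper-quartile factors or a filter of 1 CPM in 3 libraries, edgeR called 0 of the 42 genes. It also called 0 (0%) of all genes tested in each of these settings. DESeq2 called 1035 genes in all, 2 of the 42 and 5 of the further autophagy genes. With no filter edgeR called 1574, 1 (WIPI1, adjusted p = 0.00111) and 6, and the median of all genes tested, now 43251, shifted to 0.12. Leaving out 1 library gave 0 to 2815 calls over all genes, 0 to 11 among the 42, 0 to 14 among the further genes, and 3 to 17 of the 42 at an unadjusted p. The highest value in each case was without knockdown 3, and the cause was not tested. The median of the 42 genes stayed negative in every alternative, from -0.22 to -0.09 when 1 library was left out. When 1 library was left out, log2 fold changes ran from -0.0941 to 0.0267 for MOCS2, from -0.07275 to 0.0811 for WIPI2 and from -0.217 to 0.372 for MAP1LC3B. MOCS2 was at 0.009488 with upper-quartile factors and WIPI2 at -0.003467 with no filter. Apart from MOCS2, 24 genes were named by their small p or their abundance in these data, so their calls are no measure of the pathway. Without knockdown 3, 14 of the 24 gained a call (against 8.3% of all genes lower and 6.46% higher). With DESeq2 6 gained a call (against 3.41% and 2.89%), with no filter 5 (2.03% and 1.6%), and in the other alternatives 0. ULK1, CALCOCO2 and VAMP8, also called without knockdown 3, are not among the 24. Same-numbered libraries did not deviate together (correlations 0.11, -0.17 and -0.12), and not every library correlated best with its own number. The replicate block gave 19 calls over all genes and 0 among the 42. Depth limits MAP1LC3A most, with the fewest counts of the 42, a mean of 51.3 a library.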
